A study of Mus musculus with 14 samples.

Results

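The heat shock response and the unfolded protein response were followed across 40 genes in the aortic valve leaflets of mice given angiotensin II (AngII), the HTR2B antagonist LY272015 (LY), or both. The genes were listed by name and found in the deposited count table, which holds 56941 genes. They were divided by the compartment and role of their proteins into 13 cytosolic chaperones and co-chaperones, 3 mitochondrial chaperones, 14 chaperones and folding enzymes of the endoplasmic reticulum (ER), 5 genes of ER sensing and ER degradation, and 5 genes of the ATF4 branch. All 40 passed the filter on low counts (a mean of at least 10 counts over the libraries), which left 19145 genes in the tests.

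All mice were C57BL/6J (C57BL/6 in the sample labels) wild type males, 8 weeks old. The methods describe mice fed the Breslow Western Diet and infused with AngII. They do not state separately which diet the Ctrl and LY mice received. The 4 Ctrl mice were untreated, 2 LY mice received LY272015 at 3 mg/kg, 4 AngII mice received AngII at 1000 ng/kg/min for 28 days from an osmotic pump, and 4 AngII+LY mice received both. The series places the AngII and AngII+LY valves 48 h after removal of the pump, while the methods describe removal in only some of the mice, so whether all of these valves came from mice without a pump is not known. The labels also disagree on the dosing interval of LY272015 (every other day or 2 times a week) and give some dosed mice other compound numbers, so the LY and AngII+LY groups were taken from the sample titles.

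Cells answer unfolded protein in separate compartments. In the cytosol the transcription factor HSF1 drives the genes of Hsp70, Hsp90, Hsp40 and small heat shock proteins, which hold and refold proteins. In the ER the sensors IRE1 (gene Ern1), PERK (gene Eif2ak3) and ATF6 respond to unfolded secretory proteins, and through XBP1, ATF4 and ATF6 they raise the genes of ER chaperones, disulfide isomerases and the degradation machinery. Valve interstitial cells secrete collagen and other matrix proteins, which are folded in the ER by chaperones of this kind.

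The libraries held between 20990655 and 73128220 counts. Each is 1 mouse, so the errors given are between mice. The Ctrl mice had 4.00% to 7.52% of counts from the mitochondrial genome, the LY mice 8.62% and 9.77%, and the AngII+LY mice 10.1% to 20.2%. AngII 3 (24.7%) and AngII 4 (25.5%, also the smallest library) stood apart from AngII 1 (11.1%) and AngII 2 (9.83%). Fibroblast and valve interstitial markers, all 8 of them detected, made up 0.938% to 1.94% of counts in Ctrl and 1.20% to 1.80% in AngII, and in AngII+LY the range was 0.497% to 0.899%. The 12 cardiomyocyte markers were also present, with 0.934% to 3.57% of counts in Ctrl and 0.894% to 1.76% in AngII, and AngII+LY mice had 2.22% to 4.67%. The summed share of adipocyte markers was 0.0874% to 0.122% in Ctrl and lower in AngII, 0.0407% to 0.0722%, without overlap. Fabp4 was the largest of this list in every library, and it overlapped (37117 to 45000 normalised counts in Ctrl, 18355 to 43315 in AngII). Adipoq, Cidea, Lep and Pparg overlapped too, and Plin1, Cidec and Ucp1 did not. Smooth muscle markers made up 0.922% of counts in Ctrl 1 and at most 0.169% (AngII+LY 2) in any other library. The part of tissue content in the fold changes below was not tested. In bulk tissue, fewer cells of a type and less RNA per cell cannot be told apart.

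Levels were compared between genes per kilobase of annotated exon, from the means of TMM-normalised read counts in the 4 Ctrl mice. The length joins all annotated exons of a gene and can exceed that of 1 mRNA, so the order of genes depends on it. It was 1044 bases for Hspb1, 5401 for Hsp90ab1, 8680 for Hspa8 and 11709 for Asns. Not divided by length, their Ctrl means were 15005, 54401, 46486 and 385.1 in that order, and Chac1 was at 209.9. Per kilobase, Hspb1, a small heat shock protein that binds actin filaments, had the highest level of the 40 genes, 14372 ± 3037 normalised counts (SD, n = 4). Hsp90ab1, the constitutive cytosolic Hsp90, followed at 10072 ± 1134, and these genes differed by more than the sum of their SDs. Of the ER genes, Pdia3 (5937 ± 1753), Hspa5 (5618 ± 535.8) and Calr (4766 ± 453.7) did not differ beyond their spread. The mitochondrial co-chaperonin gene Hspe1 stood at 3249 ± 581.4 and its partner Hspd1 at 1756 ± 247.4. Of the genes of ER sensing and degradation, Herpud1 was the highest (3604 ± 598.7), and the sensors Eif2ak3 (212.6 ± 49.93) and Ern1 (123.1 ± 39.6) were low. Atf4 led its branch at 2275 ± 208.5, and Asns was the lowest of the 40 genes at 32.89 ± 6.585.

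With AngII, 6 of the 14 ER chaperones and folding enzymes (Dnajb9, Pdia3, Canx, Hsp90b1, Hspa13, Hspa5) stood 1.52- to 2.2-fold higher than in Ctrl at an unadjusted p under 0.05, 1 (Sdf2l1) was lower, and 7 were not under that threshold. A gene was called in edgeR when its adjusted p was below 0.05 and its log2 fold change was beyond 0.5 in either direction. None was, neither among the 40 nor among the 19145 tested (0%), while DESeq2 called 10 of the 40 and 13.9% of all genes. At an unadjusted p under 0.05, 16 of the 40 genes differed, 12 higher and 4 lower, where 25.2% of all genes did (13.4% higher and 11.7% lower). Of the 14 ER chaperones and folding enzymes, 6 were higher and 1 was lower at that level. The median log2 fold change was 0.0426 for the ER class, -0.0935 for the 40 genes and -0.0581 for all genes tested.

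**Figure D1:**
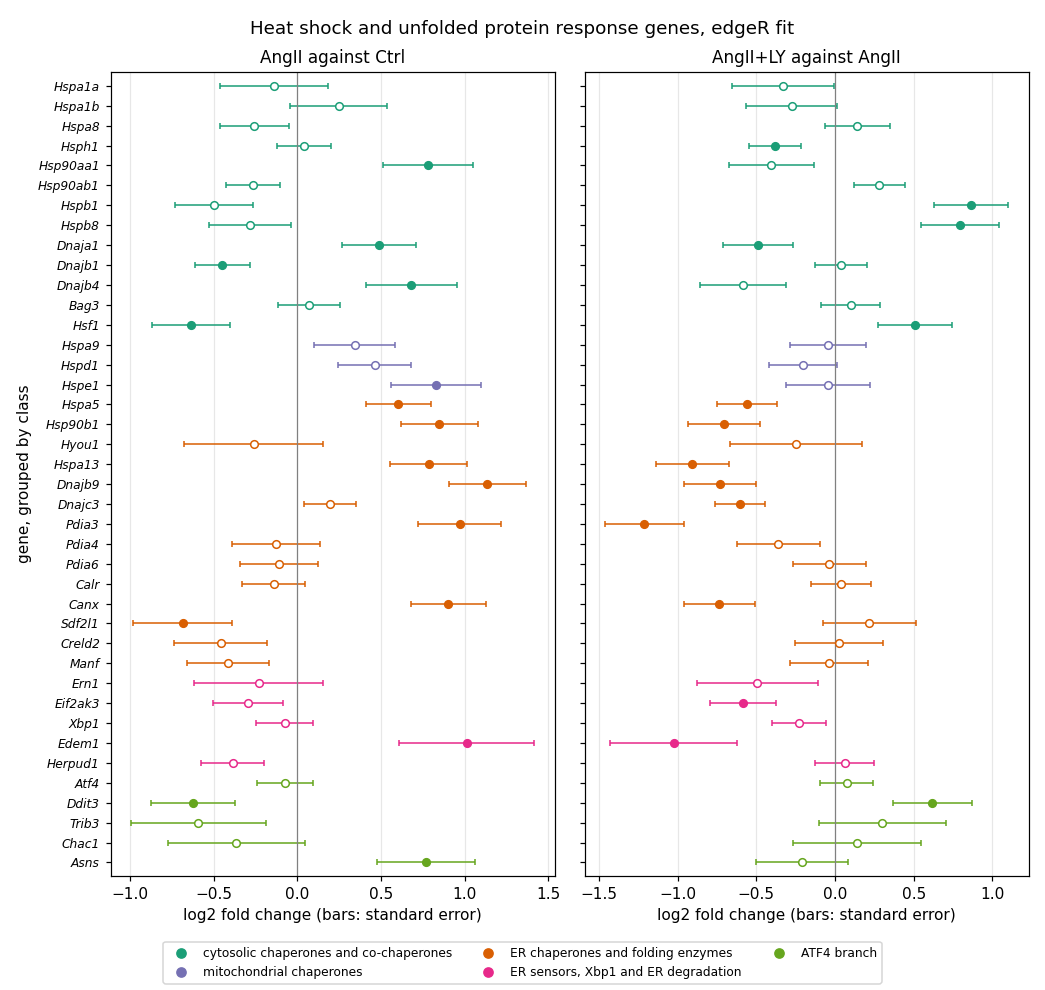
Log2 fold changes (x axes) of the 40 genes (y axis, coloured by class) in AngII against Ctrl (left) and AngII+LY against AngII (right), with bars for the standard error of the edgeR fit and filled points for an unadjusted p under 0.05. Dnajb9, Pdia3, Canx, Hsp90b1, Hspa13 and Hspa5 lie right of 0 in the left panel and left of 0 in the right panel, and both panels share the 4 AngII mice.

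Dnajb9 encodes ERdj4, a J-domain partner of BiP whose gene is a target of XBP1. Its normalised read count was 1650, 1660, 1544 and 2747 in the 4 Ctrl mice and 3299, 3685, 4135 and 5615 in the 4 AngII mice. Every AngII mouse was above every Ctrl mouse. The log2 fold change was 1.14 ± 0.231 (SE, edgeR adjusted p = 0.0573), equal to the lowest adjusted p of all genes tested.

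Pdia3, a disulfide isomerase that works with the lectin chaperones on glycoproteins, stood at 29529, 21151, 22072 and 38938 in Ctrl and at 50621, 52225, 47692 and 68434 in AngII. Canx, the membrane-bound lectin chaperone calnexin, stood at 15323, 15720, 13039 and 22204 in Ctrl and at 23578, 28232, 31773 and 40444 in AngII. Neither gene had overlapping mice. The log2 fold changes were 0.97 ± 0.250 for Pdia3 (edgeR adjusted p = 0.0592) and 0.90 ± 0.225 for Canx (edgeR adjusted p = 0.0584).

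Hsp90b1 (GRP94, the Hsp90 of the ER) was at 20952, 16208, 16789 and 28943 in Ctrl and at 35163, 37148, 35040 and 42069 in AngII. Hspa5 (BiP, the Hsp70 of the ER) was at 32413, 34037, 27073 and 31288 in Ctrl and at 46744, 42953, 39106 and 61008 in AngII. Again no AngII mouse overlapped a Ctrl mouse, and the log2 fold changes were 0.85 ± 0.231 and 0.60 ± 0.192 (edgeR adjusted p = 0.0632 and 0.0877). Annotated exons of Rabepk on the other strand cover 44.2% of the exon bases of Hspa5, and the strand setting of the counting is not given in the sources used here, so reads of these genes may not be told apart. Of the 40 genes, 28 share exon bases with another annotated gene. Catsper2, Ell3 and Serinc4 cover 13.4%, 13.1% and 11.6% of Pdia3, and Dgat1 covers 24.9% of Hsf1, all on the other strand. Rbm15b covers 32.6% of Manf on the same strand.

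Hspa13, a microsomal Hsp70-like ATPase, was at 1468, 1345, 1486 and 2828 in Ctrl and at 2748, 2826, 3253 and 3458 in AngII. Ctrl 4 lay inside the AngII range, and Ctrl 4 was also the highest Ctrl mouse for Dnajb9, Pdia3, Canx and Hsp90b1. Hspa13 differed by 0.78 ± 0.231 on the log2 scale (edgeR adjusted p = 0.0763).

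In all, 5 ER genes (Hspa5, Hsp90b1, Dnajb9, Pdia3, Canx) had every AngII mouse above every Ctrl mouse, as did 7 of the 40 genes and 7.46% of all genes tested. An exact 2-sided permutation test of 1 such gene gives p = 0.0286, the smallest that 4 against 4 mice allow.

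The remaining ER genes gave another picture. Calr, the soluble counterpart of calnexin, was at 19193, 18652, 15609 and 19238 in Ctrl and at 21009, 18076, 13023 and 13775 in AngII, with overlapping mice and a log2 fold change of -0.14 ± 0.190. Pdia4, Pdia6, Hyou1 (the exchange factor of BiP) and Dnajc3 (an inhibitor of PERK) had log2 fold changes from -0.26 to 0.20 and overlapping mice. Sdf2l1, a partner of BiP, was lower at the unadjusted level, by -0.69 ± 0.295 on the log2 scale (edgeR adjusted p = 0.168). Creld2 and Manf, secreted proteins whose genes respond to ER stress, had negative log2 fold changes of -0.46 ± 0.279 and -0.41 ± 0.247 with overlapping mice. This split within the class depended on AngII 3 and AngII 4. Without them 11 of the 14 ER genes had a positive log2 fold change, where 7 did with all libraries. The class median was then 0.278, against -0.0455 for all genes. At an unadjusted p under 0.05, 6 were higher and 0 lower, against 4.93% and 3.65% of all genes.

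**Figure D2:**
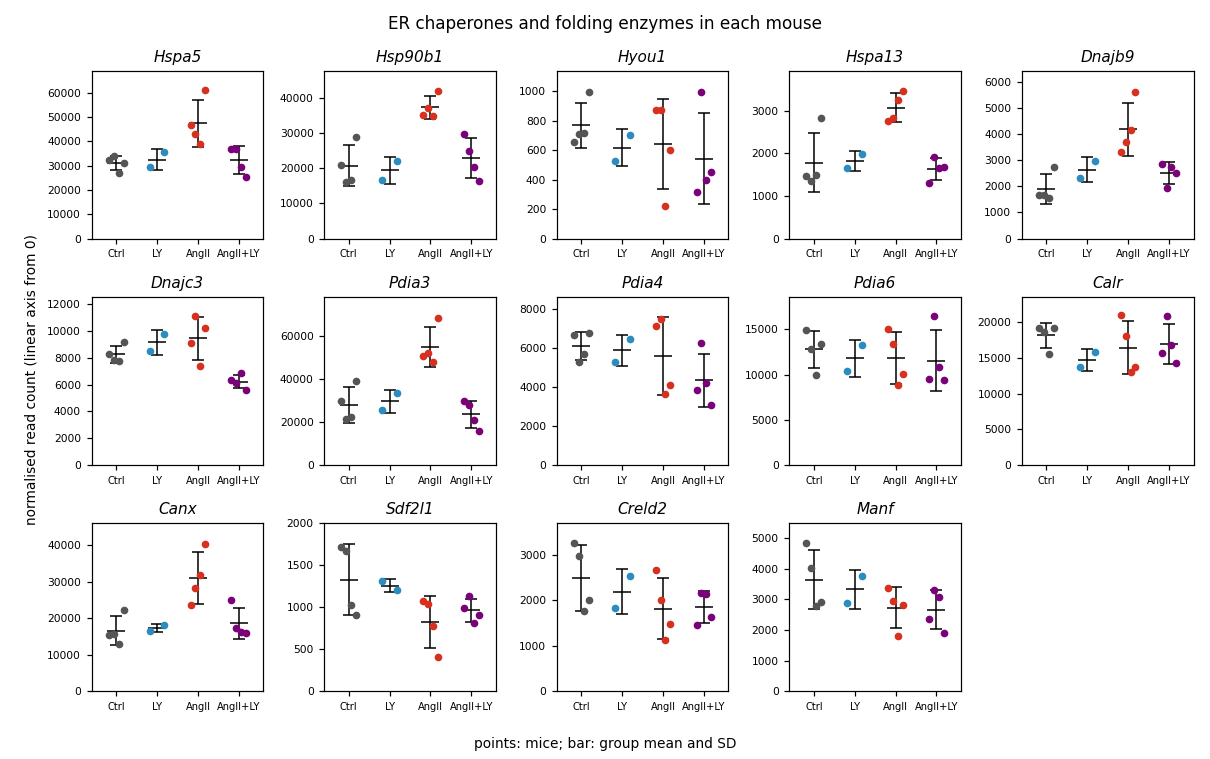
Normalised read counts (y axes, linear from 0) of the 14 ER chaperones and folding enzymes in each mouse (points) of the 4 groups (x axes), with bars for the group mean and SD. For Hspa5, Hsp90b1, Dnajb9, Pdia3 and Canx all 4 AngII mice sit above the 4 Ctrl mice, while for Calr, Pdia6, Creld2 and Manf the groups overlap.

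The promoters of the ER genes were searched for the ER stress response element, the site of ATF6 and XBP1, written here as CCAAT and CCACG on 1 strand with 9 bases of any kind between them. Of the 40 genes, 32 matched a promoter window in the RefSeq table (GRCm38.p6, 250 bases before to 50 after the gene start), and all coordinates are those of an exact match of the window to GRCm39. Both strands were read. Distances are from the RefSeq start. The GENCODE genes used for exon values start further upstream for Hspa5 and Hsp90b1, so the element of Hspa5 and the second copy of Hsp90b1 lie inside those genes. The element stood in 7 of 11 ER chaperone genes with a window and in none of the other 21 genes with one, against 0.137% of 27025 genes with a window. The 8 copies are shown because they are shared by ER genes that were higher with AngII and by ER genes that were not, each 5′ to 3′ on its own strand with both boxes in capitals.
Hspa5 (chr2:34662037-34662055, plus strand, 65 bases before the gene start): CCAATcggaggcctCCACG
Hsp90b1 (chr10:86541502-86541520, minus strand, 212 bases before): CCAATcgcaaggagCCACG
Hsp90b1 (chr10:86541397-86541415, plus strand, 107 bases before): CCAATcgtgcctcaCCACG
Canx (chr11:50216627-50216645, minus strand, 145 bases before): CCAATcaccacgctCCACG
Dnajc3 (chr14:119175239-119175257, plus strand, 105 bases before): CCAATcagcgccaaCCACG
Calr (chr8:85573704-85573722, plus strand, 162 bases before): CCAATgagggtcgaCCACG
Pdia6 (chr12:17316492-17316510, plus strand, 98 bases before): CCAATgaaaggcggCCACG
Creld2 (chr15:88703723-88703741, minus strand, 126 bases before): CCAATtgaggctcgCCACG

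Of these 7 genes, Canx, Hsp90b1 and Hspa5 were higher with AngII, whereas Dnajc3, Pdia6, Calr and Creld2 had log2 fold changes of 0.20, -0.11, -0.14 and -0.46. The exons of the first 3 hold 40.9%, 43.3% and 44.7% GC, and those of the other 4 hold 44.4%, 46.8%, 48.4% and 53.2%. Pdia3 and Dnajb9 had a window and no such element in it, which says only that these letters are not in this window.

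The full windows of Hspa5 and Hsp90b1 are given as examples of a window with 1 exact match of these letters and a window with 2. They are on the strand of the gene, with the exact matches in capitals, the second of Hsp90b1 read on the other strand. Variants of the letters were not searched, so the number of elements in each promoter is not given by this.
Hspa5 (chr2:34661852-34662151, plus strand): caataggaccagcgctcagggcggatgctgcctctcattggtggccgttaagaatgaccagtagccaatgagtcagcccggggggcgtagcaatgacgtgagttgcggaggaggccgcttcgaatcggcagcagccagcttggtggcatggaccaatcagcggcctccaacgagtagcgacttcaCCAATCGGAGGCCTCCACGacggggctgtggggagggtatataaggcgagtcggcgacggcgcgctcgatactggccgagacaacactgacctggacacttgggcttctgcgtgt
Hsp90b1 (chr10:86541259-86541558, minus strand): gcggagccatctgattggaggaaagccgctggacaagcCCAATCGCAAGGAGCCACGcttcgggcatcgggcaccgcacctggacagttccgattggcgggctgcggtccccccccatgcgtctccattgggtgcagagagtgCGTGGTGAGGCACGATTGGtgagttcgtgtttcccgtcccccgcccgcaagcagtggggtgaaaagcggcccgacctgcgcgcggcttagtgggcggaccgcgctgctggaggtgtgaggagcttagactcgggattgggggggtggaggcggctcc

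Other elements were searched in the same windows. TGACGTGG, the unfolded protein response element, whose last 5 letters are the reverse complement of CCACG, was in 0 of the 32 windows against 0.714% of all genes. TGATGNAAT, the element of CHOP and ATF4, was in 0 of 32 against 1.08%. The heat shock element is GAA and TTC in alternation, 3 boxes with 2 bases between them. It was in 3 of 32 (9.38%), Hspd1, Hspe1 and Hsph1, against 0.662% of all genes. The 8 genes without a window, Hsf1, Hsp90aa1, Hsp90ab1, Hspa13, Hspa8, Hspa9, Hyou1 and Manf, were not searched.

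In the cytosol, 5 of the 13 genes had an unadjusted p under 0.05 with AngII, 3 higher (Hsp90aa1, Dnaja1, Dnajb4) and 2 lower (Dnajb1, Hsf1), against 25.2% of all genes. The class had a median log2 fold change of -0.138, which was 0.177 after correction for GC content, with 11 of 13 genes positive. Without AngII 3 and AngII 4 no cytosolic gene was higher at that level and 1, Dnajb1, was lower. The inducible Hsp70 genes were not among them. The 8 immediate early genes, which tissue handling can induce, made up 0.0965% to 0.131% of counts in Ctrl, 0.0373% to 0.0828% with AngII alone and 0.0446% to 0.0742% with both agents, and their part in the heat shock values was not tested. Hspa1a was at 1229, 983.9, 631 and 896.3 in Ctrl and at 1046, 789.4, 666.9 and 896.7 in AngII. Hspa1b was at 1912, 1694, 1361 and 1804 in Ctrl and at 2314, 1783, 1640 and 2303 in AngII. Mice of the groups overlapped for both, with log2 fold changes of -0.14 ± 0.321 and 0.25 ± 0.288. These genes are near copies, 47.07% of the 100-base windows of Hspa1a also occur in Hspa1b, and how their reads were divided is uncertain.

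Hsp90aa1, the stress-inducible Hsp90, was at 11124, 8820, 5644 and 10242 in Ctrl and at 11316, 11697, 16102 and 22494 in AngII. The groups did not overlap, but AngII 1 and AngII 2 were close to Ctrl 1, and AngII 3 and AngII 4, the libraries with the high mitochondrial share, were highest. The log2 fold change was 0.78 ± 0.269 (edgeR adjusted p = 0.104). Without AngII 3 and AngII 4 it was 0.36 and no longer under an unadjusted p of 0.05.

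Dnaja1, an Hsp40 co-chaperone, was at 8364, 8724, 5515 and 7760 in Ctrl and at 9778, 8726, 9505 and 14549 in AngII, the groups being nearly in contact (8726 against 8724; log2 fold change 0.49 ± 0.222, edgeR adjusted p = 0.189). Without AngII 3 and AngII 4 Dnaja1 differed by 0.29 and Dnajb4 by 0.275, and after correction for GC content Dnaja1 differed by 0.155, none of them under the unadjusted threshold. Exons of Smu1 on the other strand cover 77.9% of its exon bases. Dnajb1, the Hsp40 partner of inducible Hsp70, was at 3314, 4681, 3061 and 3066 in Ctrl and at 2465, 2729, 2751 and 2409 in AngII. All 4 AngII mice were below the Ctrl mice (log2 fold change -0.45 ± 0.166, edgeR adjusted p = 0.122).

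Hsf1, the regulator of the heat shock response, was at 3042, 3036, 2995 and 2551 in Ctrl and at 2360, 2444, 1429 and 1228 in AngII, again without overlap. The log2 fold change was -0.64 ± 0.233 (edgeR adjusted p = 0.12), and AngII 3 and AngII 4 were the lowest. Without those libraries it was -0.27, again not under the unadjusted threshold. Hspa8, Hsp90ab1, Hsph1, Hspb1, Hspb8 and Bag3 had log2 fold changes between -0.50 and 0.07 and none was under the unadjusted threshold.

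The 3 mitochondrial chaperone genes all had positive log2 fold changes with AngII. Hspe1 was at 5137, 5855, 4932 and 7222 in Ctrl and at 7320, 6626, 15351 and 11816 in AngII. AngII 3 and AngII 4 were far above the rest and AngII 2 lay within the Ctrl range (log2 fold change 0.83 ± 0.269, edgeR adjusted p = 0.0924). Without those libraries Hspe1 differed by 0.27, which was not under the unadjusted threshold. Hspd1 (0.46 ± 0.218) and Hspa9 (0.34 ± 0.242) were also highest in AngII 3 and AngII 4, at 11672 and 10585 and at 22176 and 20144. The part of the mitochondrial share in these values was not tested.

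Hspe1 and Hspd1 lie head to head, and their windows overlap. Both hold the same heat shock elements, which is why this window is shown, with the elements, as 2 overlapping copies, in capitals.
Hspe1 (chr1:55127057-55127356, plus strand): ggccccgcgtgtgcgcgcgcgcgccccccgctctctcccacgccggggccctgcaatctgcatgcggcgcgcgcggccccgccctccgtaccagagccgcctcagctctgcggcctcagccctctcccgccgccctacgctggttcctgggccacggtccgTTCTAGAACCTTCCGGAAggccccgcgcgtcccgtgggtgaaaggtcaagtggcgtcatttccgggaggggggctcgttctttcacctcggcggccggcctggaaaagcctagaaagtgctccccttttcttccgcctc

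**Figure D3:**
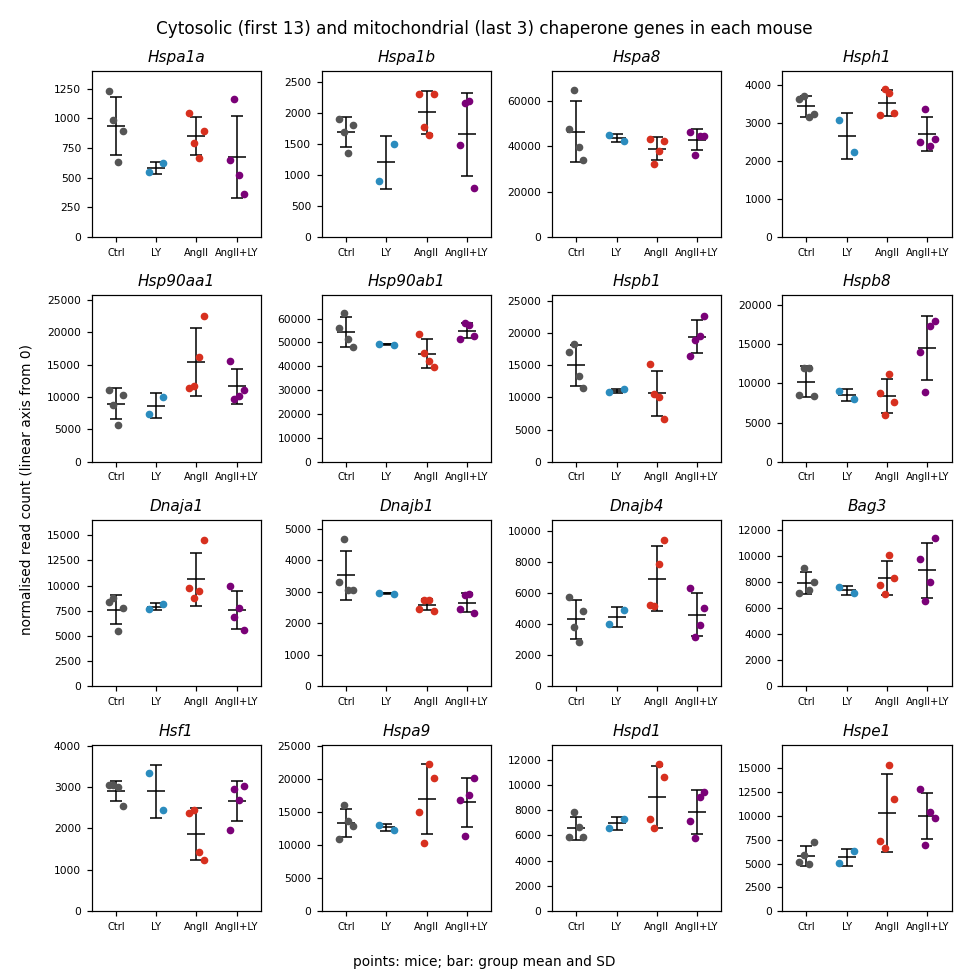
Normalised read counts (y axes, linear from 0) of the 13 cytosolic and 3 mitochondrial chaperone genes in each mouse (points) of the 4 groups (x axes), with bars for the group mean and SD. Hspb1 is higher in the 4 AngII+LY mice (16437 to 22666) than in the 4 AngII mice (6700 to 15241). Hsp90aa1 is highest in AngII 4 and AngII 3, and Hspe1 is highest in AngII 3 and AngII+LY 1.

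Of the 5 genes of ER sensing and degradation 1 was higher with AngII at the unadjusted level (Edem1), and of the 5 of the ATF4 branch 1 was higher (Asns) and 1 lower (Ddit3), against 25.2% of all genes in either direction. Xbp1, whose mRNA is spliced by IRE1, was at 14325, 13847, 12077 and 11863 in Ctrl and at 13738, 13114, 9982 and 12590 in AngII (log2 fold change -0.08 ± 0.171). Atf4 was at 5830, 5288, 5739 and 4751 in Ctrl and at 5376, 4094, 4717 and 6350 in AngII (log2 fold change -0.07 ± 0.167). The mice of the groups overlapped for both genes. Gene counts do not separate spliced from unspliced Xbp1 and do not see the translation of Atf4, the steps at which these genes are mainly controlled.

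Ddit3 (CHOP, a transcription factor of prolonged stress) was at 2462, 2826, 2547 and 1964 in Ctrl and at 2055, 1695, 1613 and 982.7 in AngII. It differed by -0.62 ± 0.250 (edgeR adjusted p = 0.143), with Ctrl 4 inside the AngII range. Exons of Mars1 on the other strand cover 64.1% of the exon bases of Ddit3. Asns, the asparagine synthetase gene and a target of ATF4, was higher by 0.77 ± 0.293 on the log2 scale (edgeR adjusted p = 0.128), with AngII 3 (349.7) inside the Ctrl range of 329.7 to 493.8. Trib3 and Chac1, also targets of ATF4, had log2 fold changes of -0.59 ± 0.404 and -0.36 ± 0.408.

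Herpud1, an ER degradation component, was at 13341, 17386, 12777 and 12341 in Ctrl and at 11978, 11201, 11493 and 8017 in AngII, without overlap (log2 fold change -0.39 ± 0.186, edgeR adjusted p = 0.209). With Dnajb1 and Hsf1 it was 1 of 3 genes of the 40 with all AngII mice below the Ctrl mice, where 7.56% of all genes were. Edem1, which passes misfolded glycoproteins to degradation, was at 4314, 4354, 2906 and 15135 in AngII against 2651 to 3939 in Ctrl. The value of AngII 4 set its log2 fold change of 1.01 ± 0.404, which was 0.22 without that mouse. Eif2ak3 and Ern1 had log2 fold changes of -0.29 ± 0.210 and -0.23 ± 0.385 with overlapping mice.

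**Figure D4:**
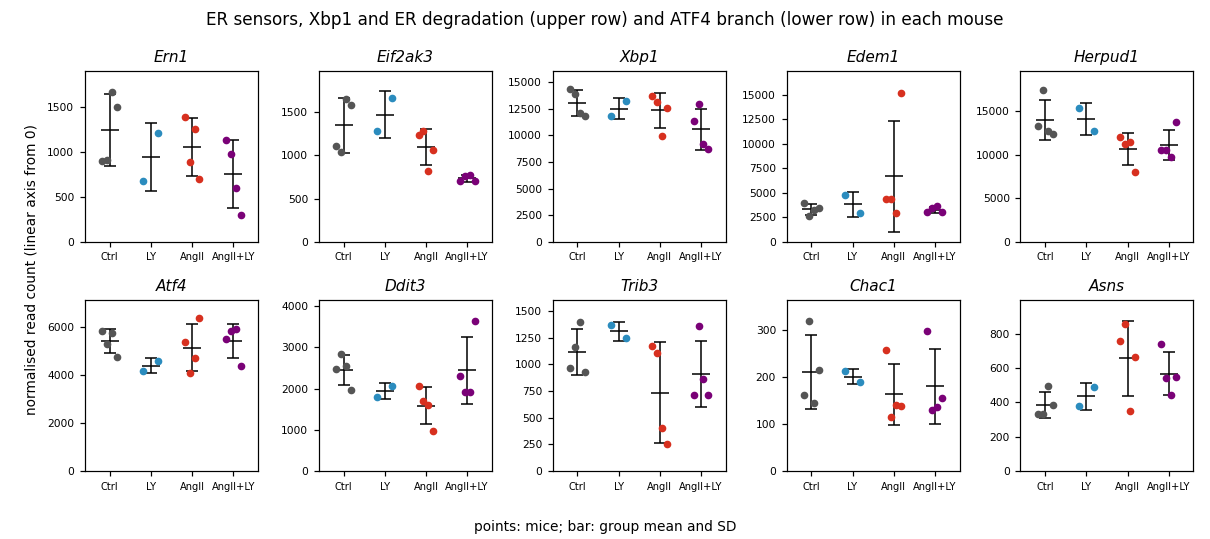
Normalised read counts (y axes, linear from 0) of 5 genes of ER sensing and ER degradation (upper row) and 5 genes of the ATF4 branch (lower row) in each mouse (points) of the 4 groups (x axes), with bars for the group mean and SD. Edem1 is high in 1 AngII mouse (15135), and Eif2ak3 is low in all 4 AngII+LY mice (697.5 to 770.2).

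Further genes of the same pathways were read from 4 lists with 101 genes in all, none of them among the 40. Of these, 40 had an unadjusted p under 0.05 with AngII, 21 higher and 19 lower, where 25.2% of all genes did (13.4% higher and 11.7% lower). In the list of 28 genes of ER folding and degradation, 6 were higher and 4 lower. Erp44, which retains secretory proteins in the ER, was higher (log2 fold change 0.77 ± 0.186, edgeR adjusted p = 0.0584), as was Mbtps2, the protease that activates ATF6 (1.32 ± 0.360, edgeR adjusted p = 0.0635). Syvn1, the ubiquitin ligase of ER degradation, was lower (-0.76 ± 0.263, edgeR adjusted p = 0.105).

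In the list of 32 cytosolic chaperones and HSF1 targets, 11 were higher and 9 lower. The chaperonin subunit gene Cct8 was higher (0.67 ± 0.165, edgeR adjusted p = 0.0584) and Stub1, the ubiquitin ligase that works with Hsp70, was lower (-0.92 ± 0.236, edgeR adjusted p = 0.0588). Of 9 mitochondrial chaperones and proteases, Yme1l1 was higher (1.15 ± 0.269, edgeR adjusted p = 0.0574), and the matrix proteases Lonp1 (-0.85 ± 0.256, edgeR adjusted p = 0.0798) and Clpp (-0.72 ± 0.224, edgeR adjusted p = 0.0848) were lower. Of 32 genes of the eIF2alpha kinases and ATF4 targets, 3 were higher and 4 lower, among them Cebpb (-1.04 ± 0.331, edgeR adjusted p = 0.0881). The medians of the 4 lists lay between -0.373 and 0.211.

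The comparison of AngII+LY with AngII asked how these genes differed when HTR2B was blocked during AngII infusion. The same AngII mice enter this comparison and the last, so the values stand side by side and are not independent. At the unadjusted level 7 of the 14 ER chaperones and folding enzymes were lower in AngII+LY, the small heat shock genes Hspb1 and Hspb8 were higher, and no mitochondrial chaperone was under the threshold. After correction for GC content, 1 of the 7, Pdia3, stayed under the threshold. No gene of the 40, and 0% of all genes, passed the test in edgeR, while DESeq2 called 9 of the 40 and 10.9% of all genes. At an unadjusted p under 0.05, 15 of the 40 genes differed, 4 higher and 11 lower, against 22.5% of all genes (10.1% higher and 12.4% lower). The median log2 fold change of the 14 ER genes was -0.46, against -0.206 for the 40 genes and -0.0163 for all genes. With all libraries 11 of the 14 ER genes were negative, and without AngII 3 and AngII 4 all 14 were.

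Pdia3 had the widest difference of the 40 genes. It was at 29689, 27849, 20975 and 15994 in AngII+LY, below all 4 AngII mice and within or below the Ctrl range. Against AngII it differed by -1.21 ± 0.251 (edgeR adjusted p = 0.0588). Hspa13 was at 1296, 1906, 1661 and 1689 in AngII+LY (log2 fold change -0.91 ± 0.232, edgeR adjusted p = 0.0662), and Dnajb9 was at 2868, 1933, 2754 and 2519 (-0.73 ± 0.229, edgeR adjusted p = 0.0963). For both, all AngII+LY mice were below the AngII mice.

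Hsp90b1 was at 29820, 24999, 20437 and 16397 in AngII+LY (-0.71 ± 0.230, edgeR adjusted p = 0.106), and Hspa5 was at 37026, 36997, 29366 and 25547 (-0.56 ± 0.192, edgeR adjusted p = 0.118). Neither overlapped with AngII. Canx was at 24940, 17268, 16329 and 16021 (-0.73 ± 0.224, edgeR adjusted p = 0.0901), with AngII+LY 1 above AngII 1. Dnajc3, which had differed little between AngII and Ctrl, was at 8288, 7853, 7763 and 9157 in Ctrl, at 9084, 11140, 7371 and 10274 in AngII and at 6332, 6137, 6847 and 5612 in AngII+LY. The AngII+LY mice were below both other groups (-0.60 ± 0.158, edgeR adjusted p = 0.0694).

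Eif2ak3, the gene of the sensor PERK, which Dnajc3 inhibits, also had all AngII+LY mice below both other groups. Eif2ak3 was at 1114, 1041, 1658 and 1585 in Ctrl, at 1230, 1287, 823.1 and 1062 in AngII and at 697.5, 765.9, 770.2 and 703 in AngII+LY, with a log2 fold change of -0.58 ± 0.211 against AngII (edgeR adjusted p = 0.129). In all, 7 of the 40 genes had every AngII+LY mouse below every AngII mouse, against 5.66% of all genes. They were Hspa5, Hsp90b1, Hspa13, Dnajb9, Dnajc3, Pdia3 and Eif2ak3. The summed share of fibroblast and valve interstitial markers was also lower in AngII+LY, without overlap (0.497% to 0.899% against 1.20% to 1.80% of counts). Singly, Col1a2, Postn, Dcn and Lum did not overlap, and Col1a1, Col3a1, Pdgfra and Vim did. The part of these cells in the differences of the 7 genes was not tested.

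Hspb1 was at 15241, 10509, 10089 and 6700 in AngII and at 16437, 18932, 19537 and 22666 in AngII+LY. It was the only gene of the 40 with every AngII+LY mouse above every AngII mouse, where 5.45% of all genes were so (log2 fold change 0.87 ± 0.235, edgeR adjusted p = 0.0725). Hspb8, a small heat shock protein that works with BAG3 in the autophagy of damaged muscle proteins, was 1.73-fold higher with AngII+LY 2 inside the AngII range (0.79 ± 0.246, edgeR adjusted p = 0.0933), and Bag3 had a log2 fold change of 0.10 ± 0.186. Both small heat shock genes are abundant in heart muscle. The summed share of the 12 cardiomyocyte markers was also higher in AngII+LY than in AngII, without overlap (2.22% to 4.67% against 0.894% to 1.76%). Singly, Myl2, Myl3, Tnni3, Tnnt2, Tnnc1 and Mybpc3 did not overlap, and Myh6, Myl7, Actc1, Ryr2, Pln and Ttn did. The part of heart muscle in these values was not tested.

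Of the other genes, Hsf1 (0.51 ± 0.233, edgeR adjusted p = 0.215) and Ddit3 (0.62 ± 0.250, edgeR adjusted p = 0.165) were higher at the unadjusted level, and Dnaja1, Hsph1 and Edem1 were lower. Without AngII 3 and AngII 4, Hsf1 (0.14) and Ddit3 (0.38) were not under the threshold, and leaving out 1 mouse at a time kept Hsf1 under it in 3 of 14 fits. The log2 fold change of Edem1, -1.03 ± 0.404, was -0.24 without AngII 4. Hspa1a and Hspa1b were spread widely in AngII+LY, from 364 to 1164 and from 786.4 to 2196, and overlapped with AngII. Xbp1 (-0.23 ± 0.171), Atf4 (0.07 ± 0.167), Herpud1 (0.06 ± 0.185) and Hspe1 (-0.04 ± 0.268) overlapped as well.

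Among the 101 further pathway genes, 30 had an unadjusted p under 0.05 in AngII+LY against AngII, 15 higher and 15 lower, where 22.5% of all genes did (10.1% higher and 12.4% lower). Of the 28 genes of ER folding and degradation, 8 were lower, with Erp44 (-0.75 ± 0.186, edgeR adjusted p = 0.0615), Edem3 (-0.83 ± 0.253, edgeR adjusted p = 0.0894) and Dnajc10 (-0.82 ± 0.250, edgeR adjusted p = 0.0898) in front, and 1 was higher, Wfs1 (0.94 ± 0.247, edgeR adjusted p = 0.0694). Of the 32 cytosolic genes 9 were higher, among them Cryab, the small heat shock protein of muscle and lens (0.91 ± 0.285, edgeR adjusted p = 0.0948), and 3 were lower. Of the 9 mitochondrial genes 4 were higher, with Clpp (0.89 ± 0.225, edgeR adjusted p = 0.0629) and Lonp1 (0.92 ± 0.256, edgeR adjusted p = 0.0763) in front, and Yme1l1 was lower (-0.78 ± 0.267, edgeR adjusted p = 0.117). Of the 32 genes of the eIF2alpha kinases and ATF4 targets, 1 was higher and 3 were lower.

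Set against Ctrl, AngII+LY mice differed in 4 of the 40 genes at an unadjusted p under 0.05, against 11% of all genes (4.89% higher and 6.14% lower), and in none after adjustment (0% of all genes). Eif2ak3 was lower (-0.88 ± 0.211, edgeR adjusted p = 0.199), as were Dnajc3 (-0.41 ± 0.158) and Dnajb1 (-0.41 ± 0.166). Hspe1 was higher (0.79 ± 0.269), at 12786, 6973, 10385 and 9757, with AngII+LY 2 inside the Ctrl range. The 6 ER genes that were higher with AngII had log2 fold changes of -0.24 to 0.41 in this comparison, each with overlapping mice. All AngII+LY mice were below all Ctrl mice for 3 of the 40 genes, Dnajb1, Dnajc3 and Eif2ak3 (4.89% of all genes), and above them for none (3.27%). DESeq2 called 1 of the 40, Eif2ak3, and 1.79% of all genes. The direction of these differences depended on the correction for GC content. After it 6 of the 40 genes were under the unadjusted threshold, 5 higher and 1 lower, against 10.2% and 3.79% of all genes. The number of positive genes went from 14 to 24, while the median of all genes moved from -0.0228 to 0.129.

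LY alone gave no gene of the 40 at an unadjusted p under 0.05, against 1.39% of all genes, and none after adjustment (0%), with 2 LY mice. The log2 fold changes ran from -0.68 ± 0.405 (Hspa1a) to 0.47 ± 0.275 (Dnajb9). For 5 genes, Hspa1a, Hsph1, Hspb1, Dnajb1 and Atf4, both LY mice were below the 4 Ctrl mice, against 6.41% of all genes, and for none were both above (5.64%). DESeq2 called none of the 40 and 0.11% of all genes. With 2 against 4 mice the exact 2-sided permutation test cannot go below p = 0.0667.

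The difference between the effect of LY with AngII and its effect without AngII was tested as an interaction. It gave an unadjusted p under 0.05 for 9 of the 40 genes, against 13.3% of all genes (5.66% higher and 7.64% lower), and no adjusted p below 0.295 (0% of all genes passed). Pdia3 (-1.29 ± 0.386), Dnajb9 (-1.21 ± 0.356), Hspa13 (-0.93 ± 0.360), Canx (-0.80 ± 0.350), Dnajc3 (-0.75 ± 0.247) and Eif2ak3 (-0.71 ± 0.328) were on the lower side, and Hspb1 (1.31 ± 0.377), Hspb8 (1.06 ± 0.394) and Ddit3 (0.96 ± 0.400) on the higher side. DESeq2 called 1 of the 40, Hspb1, and 1.06% of all genes.

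Fold changes in these libraries moved with the base composition of the genes. Across the 40 genes, Spearman's rho between the log2 fold change and the GC content of the exons was -0.709 for AngII against Ctrl and 0.714 for AngII+LY against AngII (over 19043 genes, -0.545 and 0.443), a description across genes that share the same libraries. The 12 genes higher with AngII hold 40.5% to 47.8% GC, and the 4 lower genes 49.8% to 56.7%. When every library was first corrected for the GC content of its genes, 13 of the 40 genes were higher with AngII at an unadjusted p under 0.05 and none lower, against 9.68% and 4.1% of all genes, while the median of all genes moved from -0.0581 to 0.0561. No gene passed after adjustment (0%).

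Of the 6 ER genes, 5 stayed under the unadjusted threshold with smaller differences. The corrected log2 fold changes were 0.83 for Pdia3, 0.77 for Dnajb9, 0.53 for Hsp90b1, 0.39 for Hspa5 and 0.37 for Canx, and that of Hspa13, no longer under it, was 0.26. Hspa1b (0.88), Bag3 (0.69), Hspd1 (0.78) and Atf4 (0.57) were over the threshold before the correction and under it afterwards. In all, 10 of the 40 genes changed sign with the correction, among them Dnajb1 (-0.45 to 0.03), Hspb1 (-0.50 to 0.09) and Hspa1a (-0.14 to 0.50), and the number of positive genes went from 18 to 26. In AngII+LY against AngII, the corrected fit left 5 genes, against 9.52% of all genes higher and 6.1% lower. These were Pdia3 (-0.93), Eif2ak3 (-0.59), Hspb1 (0.50), Hspb8 (0.57) and Ddit3 (0.58). The corrected values of Hspa5, Hsp90b1, Hspa13, Dnajb9, Dnajc3 and Canx lay between -0.32 and -0.19, none of them under the unadjusted threshold.

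**Figure D5:**
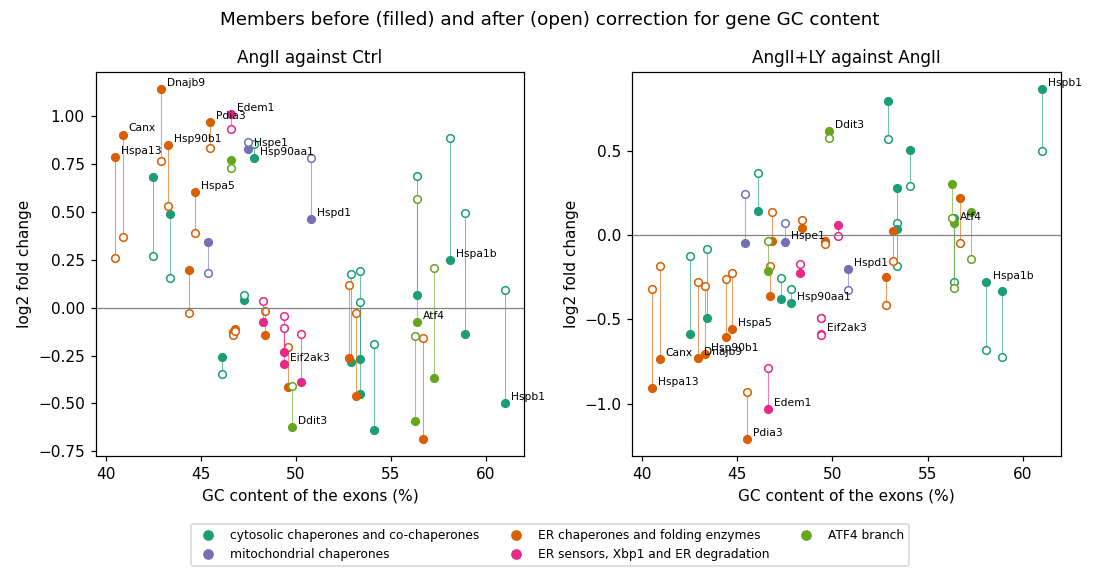
Log2 fold changes (y axes) of the 40 genes before (filled) and after (open) correction for GC content, against the GC content of their exons (x axes, %), for AngII against Ctrl (left) and AngII+LY against AngII (right). Filled points slope down in the left panel and up in the right panel, and Pdia3 keeps most of its difference in both (0.97 to 0.83 and -1.21 to -0.93).

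DESeq2, the tool named by the submitters, called 10 of the 40 genes with AngII against Ctrl, all higher, where it called 13.9% of all genes (9.16% higher and 4.75% lower). They were the 6 ER genes, Hsp90aa1, Hspe1, Edem1 and Asns. In AngII+LY against AngII it called 9, against 10.9% of all genes (5.34% higher and 5.54% lower). Hspb1 and Hspb8 were higher, and Hspa5, Hsp90b1, Hspa13, Dnajb9, Dnajc3, Pdia3 and Canx were lower. Without AngII 3 and AngII 4, the edgeR differences of the 6 ER genes in AngII against Ctrl were 0.52 to 0.88, each with an unadjusted p under 0.05. In AngII+LY against AngII without those libraries, Pdia3 (-1.12), Hspa13 (-0.77), Dnajc3 (-0.70), Hsp90b1 (-0.66) and Hspa5 (-0.48) stayed under the unadjusted threshold, and Dnajb9 (-0.47) and Canx (-0.48) did not.

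The absence of calls in edgeR depended on single libraries. In AngII against Ctrl, leaving out Ctrl 4 gave 5 called genes of the 40 (Dnajb9, Pdia3, Canx, Hspa13 and Hsp90b1; 4.22% of all genes), leaving out AngII 1 also gave 5 (Dnajb9, Canx, Pdia3, Hspe1 and Hsp90b1; 9% of all genes), and leaving out AngII 2 gave Dnajb9 alone (2.01% of all genes). With the newer edgeR setting legacy = FALSE, Dnajb9 and Canx were called in AngII against Ctrl (2.9% of all genes) and Pdia3 in AngII+LY against AngII (0.919% of all genes). In AngII+LY against AngII, leaving out AngII 1 gave 2, Hspb1 (1.09, edgeR adjusted p = 0.0351) and Pdia3 (-1.25, edgeR adjusted p = 0.0376; 4.4% of all genes called).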

How the data were processed

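Bulk RNA-seq of aortic valve leaflets was analysed from 14 mice, 1 library each. Per the labels and the study's methods, the authors checked reads with FastQC 0.12.1, trimmed them, aligned them with HISAT2 (genome build GRCm39), and took gene counts from featureCounts. The aligner and counter versions, annotation, strand setting and treatment of reads with several matches are not given in the sources used here. The deposited values are counts. The table's name announces normalized values, but every value is a whole number and the totals differ between libraries, so they were used as raw counts. Titles gave the groups. Symbols, exon lengths and GC content came from GENCODE vM39 (GRCm39), in which 618 IDs, with 0.0361% of counts, were not found. Ddit3 has 2 IDs, and the second is at 0 in every library.

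Genes averaging 10 or more counts were fitted in edgeR 4.0.16 (R 4.3.3) with TMM factors and the quasi-likelihood test, all 4 groups in 1 fit without a block. A call needed a Benjamini-Hochberg adjusted p below 0.05 over 19145 genes and a log2 fold change beyond 0.5 in either direction. Errors of fold changes are |log2 fold change| divided by the root of F. Single genes were also tested by exact permutation of log2(normalised count + 1). Shares under 3 counts (4.1e-06% to 1.43e-05% of a library) lie at the floor, and this covers counting error only. Motifs were searched in RefSeq windows. Protein sequences were not used here.

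Alternatives were DESeq2 1.42.0, DESeq2 size factors, no filter, fewer groups, a replicate block, a loess correction for GC content (span 0.3), and leaving out each mouse. The installed edgeR uses legacy = TRUE by default, so that setting is the fit reported, and legacy = FALSE was added after the data were seen, as was leaving out AngII 3 and AngII 4. The scripts were tested on simulated data. Per-mouse values are given for genes without overlap between AngII and Ctrl or AngII+LY and AngII (up to 6 per class by p), for the highest gene of each class per length, and for Hspa1a, Hspa1b, Hspa5, Hsf1, Atf4, Ddit3 and Xbp1. Values of Calr, Edem1 and Asns, and those in the closing section, were added after they were seen. Of the further pathway genes, some of up to 3 higher and 3 lower per list by p are named. Members and lists were chosen with earlier results of these data known.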

Additional observations from a re-analysis of the deposited data

Results flagged for a closer look

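Each gene was checked in each group of 4 mice for 1 mouse whose gap to the nearest other exceeded Dixon's critical share of the group's range, on the log2 scale. Of 120 such checks 7 met this, and chance alone gives about 1 in 20. Hspa13 (2828 against 1345 to 1486 in the other Ctrl mice) and Dnajb9 (2747 against 1544 to 1660) were high in Ctrl 4, the mouse nearest to AngII for both genes. Hsf1 was low in Ctrl 4 (2551 against 2995 to 3042) and Calr was low in Ctrl 3 (15609 against 18652 to 19238). Herpud1 was low in AngII 4 (8017 against 11201 to 11978). Canx was high in AngII+LY 1 (24940 against 16021 to 17268), and Hspa8 was low in AngII+LY 2 (35994 against 44565 to 46505). Without Ctrl 4 the log2 fold change of Dnajb9 in AngII against Ctrl was 1.37.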

How the results depend on the processing

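Calls among the 40 genes depended on the tool, on its settings and on single mice. DESeq2 called 10 in AngII against Ctrl, 9 in AngII+LY against AngII, 1 (Eif2ak3) in AngII+LY against Ctrl and 1 (Hspb1) in the interaction, where edgeR called 0 of each. Without the filter on low counts edgeR called 1 (Dnajb9) in AngII against Ctrl, where it called 0.377% of all genes. With legacy = FALSE, added after the data were seen, it called 2 there (Dnajb9 and Canx, 2.9% of all genes). In AngII+LY against AngII that setting called 1 (Pdia3, 0.919%). Leaving out 1 mouse at a time gave 0 to 5 calls in AngII against Ctrl, 0 to 2 in AngII+LY against AngII and 0 in the other comparisons. At an unadjusted p under 0.05 the counts then ran from 10 (without AngII 4; 16.5% of all genes) to 19 (without AngII 1; 29.6%) in AngII against Ctrl and from 11 (without AngII 4; 16.6%) to 17 (without AngII 1; 25.4%) in AngII+LY against AngII. In AngII+LY against Ctrl they ran from 3 (without AngII+LY 4, 10.7% of all genes) to 10 (without AngII+LY 2, 13.4%). In LY against Ctrl they ran from 0 to 1, where 0.582% to 1.99% of all genes were under the threshold. In the interaction they ran from 3 (without LY 2, 6.73%) to 10 (without Ctrl 4, 15.3%, and without AngII 3, 13.2%). With AngII 3 and AngII 4 both left out, added after the data were seen, they were 8 (8.57% of all genes) and 9 (14.9%) in the first pair of comparisons. The correction for GC content gave 5 in AngII+LY against AngII (15.6% of all genes), 6 in AngII+LY against Ctrl (13.9%) and 5 in the interaction (8.41%). Of the 10 genes that changed sign under it in AngII against Ctrl, Dnajb1 (0.031) had been under the unadjusted threshold before and Atf4 (0.57) was under it afterwards, and the cause was not tested.

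Groups share replicate numbers, but same-numbered mice did not deviate together (correlations of -0.128 to 0.0897), so the numbers do not pair the mice. With the replicate block, 13 genes had an unadjusted p under 0.05 in AngII against Ctrl (23.1% of all genes), 13 in AngII+LY against AngII (19.6%) and 2 in LY against Ctrl (2.02%). With the block and the GC correction together the counts were 10 (12%), 5 (13.4%) and 1 (1.93%), with 4 (7.32%) in the interaction, and Dnajb1 was at 0.037. At a depth of at least 20990655 counts a library, every one of the 40 genes passed the filter on low counts.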

Other observations

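Several genes divided the AngII mice in pairs, and these were chosen after their values were seen. AngII 1 and AngII 2 were higher than AngII 3 and AngII 4 for Pdia4 (7155 and 7496 against 3623 and 4080 normalised counts), Calr (21009 and 18076 against 13023 and 13775), Hyou1 (873.6 and 869.1 against 221.1 and 602.2) and Trib3 (1175 and 1101 against 405 and 258.1). Canx (23578 and 28232 against 31773 and 40444), Hspd1 (7289 and 6588 against 11672 and 10585) and Dnajb4 (5262 and 5175 against 7893 and 9387) were in the opposite order. AngII+LY 1, whose mitochondrial share of 20.2% was the highest of its group, was also the highest AngII+LY mouse for Hsp90aa1 (15562), Hspe1 (12786), Dnaja1 (10010), Dnajb4 (6328) and Canx (24940).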
